A study of Homo sapiens with 6 samples.

Results

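The genes described here encode the nuclear subunits of respiratory chain complexes I to IV. They were taken by symbol from a list of 58, and all 58 were found among the 58825 genes of the deposited table, with 36 assigned to complex I (NDUF genes), 4 to complex II (SDH genes), 7 to complex III (UQCR genes and CYC1) and 11 to complex IV (COX genes). The study performed RNA-seq in HK-2 cells, an established human line derived from proximal tubule epithelium, to find genes that respond to high lipid levels. Oxidized low-density lipoprotein (OX-LDL) was added at 25 μg/ml for 48 h to the cultures of the OX-LDL group, and the Control cultures were untreated (n = 3 libraries per group). The study's methods describe low-serum starvation of the cells before OX-LDL was added, and the labels give no time for the Control cultures. HK-2 is a single cell line, so the comparison is between cultures of that line and not between donors, and p-values measure only the spread between these libraries. The study's methods describe its in vitro experiments as independent without naming the sequenced libraries, and the labels do not say that these came from separate experiments.

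The respiratory chain lies in the inner mitochondrial membrane and passes electrons from NADH and succinate to oxygen. Complex I (NADH dehydrogenase) and complex II (succinate dehydrogenase) hand electrons to ubiquinone, complex III (cytochrome bc1) passes them on to cytochrome c, and complex IV (cytochrome c oxidase) reduces oxygen. Complexes I, III and IV pump protons and combine nuclear subunits with subunits encoded by mitochondrial DNA, whereas every subunit of complex II is nuclear. Proximal tubule cells of the kidney depend on mitochondria for the ATP that drives reabsorption.

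In the deposited table, every gene carries an estimated count and a length-corrected level, FPKM (fragments per kilobase of transcript), which the authors also scaled to library size. Total counts were 62561347 to 76797607 per library, with about 4 counts per read pair, so a library's detection limit was set at 12 counts, or 3 read pairs. Such limits allow for counting error alone, since the reads carry no tags that would set PCR copies apart. The 58 genes held 0.319% to 0.358% of all counts in a library. HK-2 identity was checked on 16 tubular epithelial markers, of which 8 reached 1 FPKM in every library and 5 stayed below 0.1 FPKM in every library. HNF4A and the endocytic receptor LRP2 were among those near 0. The summed level of the 16 markers was 221 to 246 FPKM in Control cells, against 266 to 302 FPKM in OX-LDL libraries. Of 11 tested identifiers (GGT1 has 2), 4 were called higher (KRT8, KRT19 and CDH6 among them) and 2 lower (PAX8 and 1 of GGT1). That is 54.5% called, against 15.3% of all genes tested. The GGT1 identifier called lower had 5071, 15 and 5830 counts in Control, against 16, 0 and 10 in OX-LDL. The other had 1215, 7126 and 1392 counts in Control, against 5122, 7063 and 6375 in OX-LDL, and was not called. The 2 overlap in position on the same strand, so the call does not describe GGT1 as a whole. Of 6 fibroblast markers only LUM reached 1 FPKM in every library, and the summed level was 10.1 to 12.01 FPKM in Control cells, against 8.76 to 14.1 FPKM in OX-LDL. All 4 endothelial markers stayed below 0.1 FPKM, and of 3 leukocyte markers PTPRC and LYZ were near 0 while CD68 had 2.77 to 7.56 FPKM in Control cells, against 8.91 to 13.6 FPKM in OX-LDL. The part of these marker differences in the results below was not tested. In bulk RNA, fewer cells of a type and less RNA per cell cannot be told apart.

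The promoters of respiratory chain genes are known for sites of the factors NRF1, GABPA (the DNA-binding part of NRF2/GABP) and YY1, so these windows were searched for shared letters. RefSeq promoters of GRCh38.p14, from 250 bases before to 50 bases after the gene's start, were matched by symbol for 48 of the 58 genes. The 10 without an entry were COX4I2, COX6C, CYC1, NDUFA4L2, NDUFB5, NDUFB9, NDUFC2, NDUFS5, SDHC and UQCRB. The NRF1-type motif GCGCATGCG, read on both strands, was in 7 of the 48 promoters (14.6%) and in 1.92% of all 35116 promoters. The YY1-type motif AAGATGGCG was in 8 (16.7%, against 1.75% of all promoters) and the GABPA-type motif CCGGAAGTG in 3 (6.25%, against 2.36%). The set of all promoters was not matched to these genes in kind or base composition. The 7 promoters with the NRF1-type motif are shown because that motif is shared by subunits of complexes I, II and IV. The motif is in capitals with 10 bases on either side, and letters are read along the strand of the gene.
NDUFS7, complex I, chr19:1383823-1383851 (+): ttccggtttcCGCATGCGCtccgagccgc
NDUFA5, complex I, chr7:123557958-123557986 (-): tatgcccatcGCGCATGCGtcaatttttc
NDUFA8, complex I, chr9:122159765-122159793 (-): gttgccggatGCGCATGCGcaggcgccgt
NDUFB4, complex I, chr3:120596167-120596195 (+): agagcacttcGCGCATGCGcatatcaccg
NDUFS6, complex I, chr5:1801351-1801379 (+): cagaagccgtGCGCATGCGttagcgctaa
SDHD, complex II, chr11:112086753-112086781 (+): agctgtgtttGCGCATGCGcgacgggtgt
COX6A1, complex IV, chr12:120437884-120437912 (+): ggagggcacaCGCATGCGCacgaaggaaa
In NDUFS7 and COX6A1 the letters are the reverse complement of the motif. The motif began between 219 bases (COX6A1) and 4 bases (NDUFA8) before the gene's start.

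The YY1-type motif stood just after the start of the gene in all 8 promoters that held it, between 10 and 25 bases downstream. It is shown for NDUFS7, which held both motifs, and for NDUFB8 and UQCRC1, which had the highest and the lowest fold change of these 8 genes.
NDUFS7, complex I, chr19:1383914-1383942 (+): ggccgaggccAAGATGGCGgtgctgtcag
NDUFB8, complex I, chr10:100529836-100529864 (-): gaagaaggtgAAGATGGCGgtggccaggg
UQCRC1, complex III, chr3:48609605-48609633 (-): ctgcagctggAAGATGGCGgcgtccgtgg
The promoters with the GABPA-type motif were those of NDUFA13, NDUFS1 and UQCRH. A match is a run of letters and not a measured binding site, and a promoter without one lacks only these letters in this window. The YY1-type motif also holds ATG, the letters of a start codon. Whether they begin the protein in the genes that held the motif was not tested. Its share and position can therefore not be read as YY1 sites alone.

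Of the 58 genes, 57 passed the minimum of 0.1 FPKM (mean over the 6 libraries) and were tested with edgeR's quasi-likelihood test on the counts, and COX4I2 did not. OX-LDL changed 4 of the 57 at an adjusted p-value under 0.05. NDUFV2 and COX6C were upregulated, and NDUFA4L2 and NDUFS8 were downregulated. These 4 are 7.02% of the genes tested here, below the 15.3% called among all 19510 genes tested (7.91% higher and 7.42% lower) and the 21.4% called among the genes that averaged 1 FPKM or more. An unadjusted p-value under 0.05 was reached by 15 of the 57 (26.3%, with 7 higher and 8 lower), against 30.4% of all genes. Only NDUFA4L2 met the study's definition of a DEG (more than 2 or less than 0.5 times the Control level, at an unadjusted p-value under 0.05), which 6.36% of all genes met. In 23 of the 57 genes (40.4%) the FPKM ranges of both groups (3 libraries each) were apart, against 37.2% of all genes.

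The fold changes were small and lay on both sides of 0. Of the 57 fitted log2 fold changes (OX-LDL over Control), 25 were above 0 and 32 below, with a median of -0.07, while the median over all genes tested was -0.0043. The median size of the change, regardless of sign, was 0.16 on the log2 scale, against 0.33 for all genes and 0.26 for genes that averaged 1 FPKM or more. These genes were also measured with less error than most, with a median standard error of 0.11 on the log2 scale against 0.20 for all genes and 0.13 for genes at 1 FPKM or more. The 95% interval of the fold change lay within 2-fold in either direction for 55 of the 57 genes. It lay within 1.5-fold for 38 (66.7%), against 30.5% of all genes and 46.9% of genes at 1 FPKM or more. An interval of that width sets a limit on the change and does not show that a gene did not change.

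**Figure D1:**
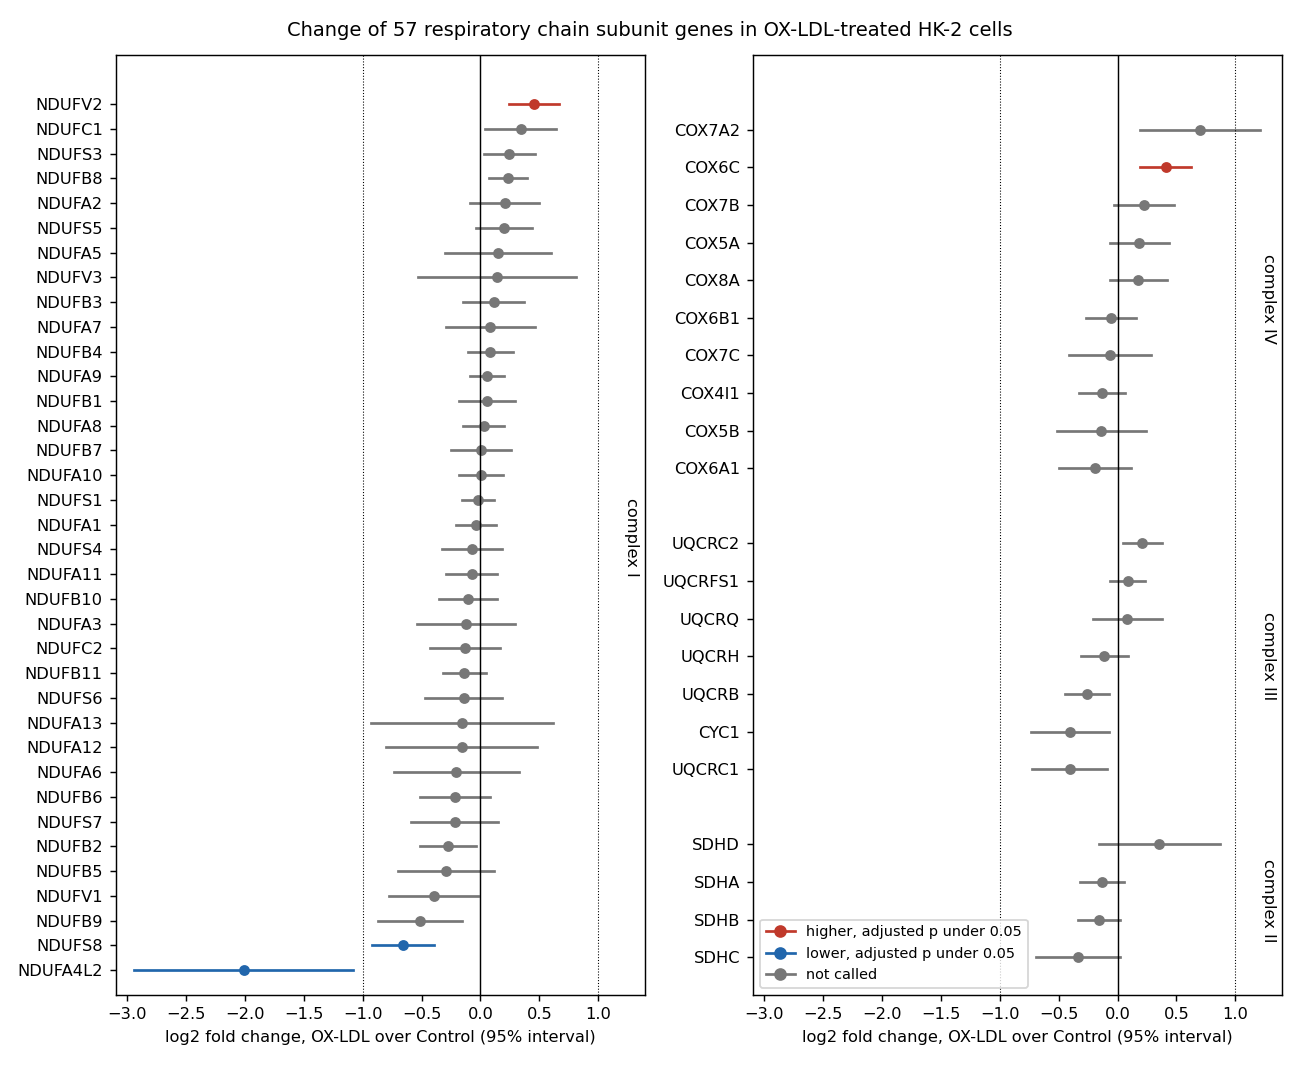
Fitted log2 fold change (x axis, OX-LDL over Control, 3 libraries per group) of the 57 tested subunit genes by complex, with points for the estimate, lines for the 95% interval and dotted lines at 2-fold. Most intervals cross 0 and lie inside the dotted lines; NDUFA4L2 at -2.01 lies apart from the rest.

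Summed over the 58 genes, the level was 1498 ± 44.4 FPKM in Control and 1482 ± 98.4 FPKM after OX-LDL (mean and SD of 3 libraries), and the groups overlapped. The sum of complex I was 868 ± 20.1 FPKM in Control cells, against 875 ± 45.6 FPKM in OX-LDL. Complex II summed to 74.9 ± 5.11 and 74.4 ± 4.47 FPKM, and complex IV to 307 ± 15.6 and 313 ± 31.3 FPKM. Complex III summed to 248 ± 11.4 FPKM in Control cells, against 220 ± 18.9 FPKM in OX-LDL. The Control libraries had sums of 239, 261 and 244 FPKM and the OX-LDL libraries of 213, 241 and 205 FPKM, in the order of their replicate numbers, so OX-LDL replicate 2 lay inside the range of the Control libraries. The median log2 fold change was -0.05 for complex I, -0.14 for complex II, -0.11 for complex III and 0.06 for complex IV.

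The subunits of one complex differed widely in FPKM although they are assembled together. FPKM depends on the length taken for each gene, and these lengths were not examined. A ranking of genes by FPKM is therefore not a ranking by counts. In complex I, the accessory subunit NDUFS5 had the highest level, with 229, 222 and 263 FPKM in Control and 263, 292 and 247 FPKM in OX-LDL. Its groups overlapped, and its log2 fold change was 0.20 (adjusted p = 0.228, edgeR). The lowest level of complex I, apart from NDUFA4L2, was that of the core subunit NDUFS7, with a mean of 1.16 FPKM over the 6 libraries. In complex II, the iron-sulfur subunit SDHB had the highest mean over the 6 libraries, with 34.6, 32.1 and 32.0 FPKM in Control and 28.1, 30.3 and 28.1 FPKM in OX-LDL. The membrane anchor SDHD was above SDHB in every OX-LDL library, so this order held in Control but not in OX-LDL. The other anchor, SDHC, was lowest by FPKM in both groups, with 7.90, 5.99 and 6.51 FPKM in Control and 4.94, 6.17 and 4.67 FPKM in OX-LDL. By counts it was not, with 9830, 7569 and 7511 in Control against 7477, 7053 and 6418 for SDHB. In OX-LDL, SDHC had 5167, 7938 and 5996 counts against 5110, 6786 and 6259. In FPKM, every OX-LDL library was below every Control library for SDHB but not for SDHC, and neither was called (log2 fold change -0.16, adjusted p = 0.218, and -0.34, adjusted p = 0.183).

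In complex III, the hinge subunit UQCRH was highest, with 113, 115 and 116 FPKM in Control and 99.8, 115 and 96.3 FPKM in OX-LDL (log2 fold change -0.11, adjusted p = 0.422, edgeR). UQCRB, which takes part in ubiquinone binding, had the lowest mean FPKM over the 6 libraries and in OX-LDL, while in Control UQCRQ and UQCRC2 were lower. This order does not hold for counts, which are not corrected for length. In Control, UQCRB had 12641, 13827 and 12917 counts, UQCRH 13351, 13807 and 12644, and UQCRQ 2689, 3043 and 2455. In complex IV, COX6A1, the widely expressed form of subunit VIa, was highest, with 61.1, 71.8 and 58.6 FPKM in Control and 53.5, 63.5 and 46.8 FPKM in OX-LDL. The groups of COX6A1 overlapped, and it was not called (log2 fold change -0.19, adjusted p = 0.377). Over the 6 libraries, 56 of the 58 genes averaged 1 FPKM or more, and 42 were above the 75th percentile of the genes tested by level. The exceptions at the low end were NDUFA4L2 and COX4I2.

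**Figure D2:**
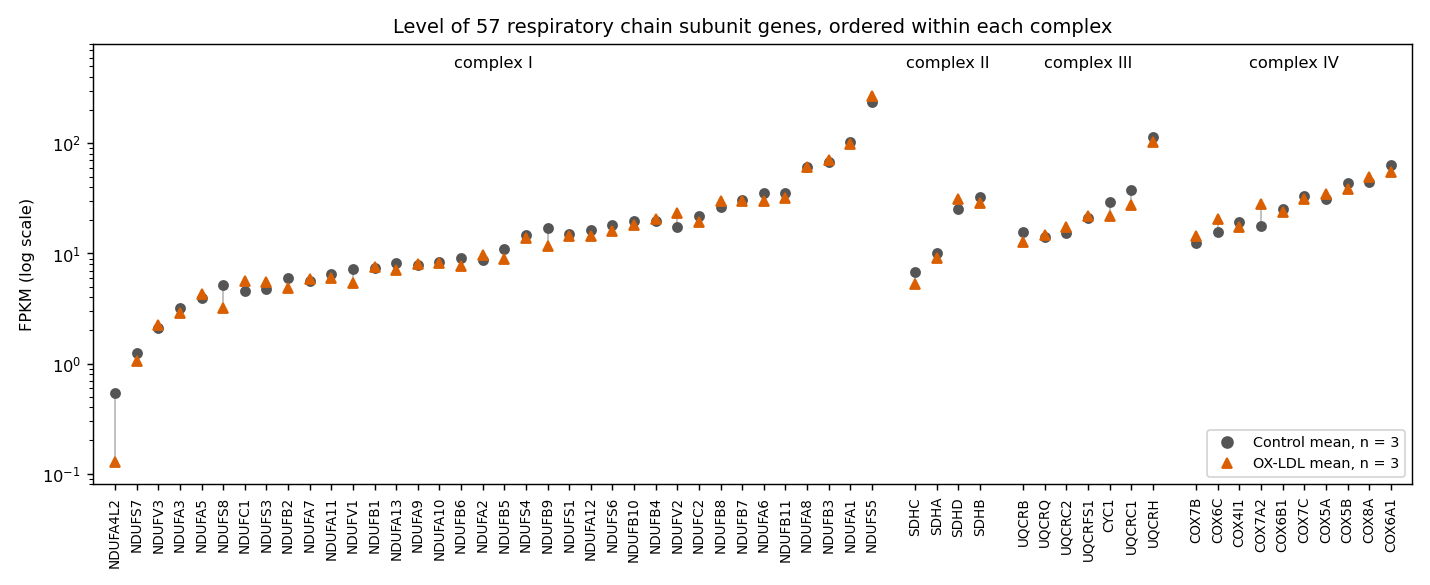
Mean FPKM (y axis, log scale) of 57 subunit genes in Control (circles) and OX-LDL (triangles), ordered by level within each complex; COX4I2 had 0 counts in every library and is not drawn. Levels ran from 0.332 FPKM (NDUFA4L2) to 252 FPKM (NDUFS5) over the 6 libraries, and in most genes both means lie close together.

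NDUFA4L2 (ENSG00000185633, chromosome 12 from 57234903 to 57240703 on the minus strand of GRCh38) had the largest fold change of the 57 genes. It encodes a paralog of the respiratory subunit NDUFA4 and is known as a gene that hypoxia induces. Its symbol places it with complex I here, although NDUFA4 itself, long listed under complex I, is now assigned to complex IV. In the order of the replicate numbers, the Control libraries had 134, 142 and 125 counts of it and the OX-LDL libraries 15, 49 and 34, which correspond to 0.531, 0.553 and 0.530 FPKM and to 0.0717, 0.181 and 0.126 FPKM. All OX-LDL libraries lay far below all Control libraries, and OX-LDL replicate 1 was close to the detection limit of 12 counts. The fitted change was -2.01 on the log2 scale (standard error 0.39, adjusted p = 0.0188, edgeR), a level 4.03-fold lower after OX-LDL. The call was kept in 3 of the 6 fits that each left out 1 library, with adjusted p-values of 0.0165 to 0.0691. It was lost without Control replicate 1 (0.0511), Control replicate 2 (0.0646) or OX-LDL replicate 3 (0.0691), while the log2 fold change ran from -2.37 to -1.72.

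NDUFA4 (ENSG00000189043, chromosome 7 from 10931943 to 10940153), which is not among the 58 genes, was measured beside it as the constitutive partner. It had 19.1, 20.7 and 19.8 FPKM in Control and 24.3, 25.9 and 23.2 FPKM in OX-LDL, and the groups did not overlap. NDUFA4 was upregulated by 0.33 on the log2 scale (standard error 0.07, adjusted p = 0.0258, edgeR), and of the 6 fits that left out a library only that without OX-LDL replicate 2 kept the call (adjusted p = 0.0443 to 0.0757). Per length, NDUFA4 was 36.9 ± 0.795 times as abundant as NDUFA4L2 in Control and 222 ± 103 times in OX-LDL. In both groups NDUFA4L2 was thus a minor transcript of the pair. The other paralog pair of this kind is COX4I1 and COX4I2, the common and the hypoxia-responsive form of complex IV subunit 4. COX4I2 had 0 counts in every library, which allows up to 12 counts in a library. COX4I1 had 18.5, 19.1 and 20.4 FPKM in Control and 16.3, 18.6 and 16.7 FPKM in OX-LDL, and was not called (log2 fold change -0.13, adjusted p = 0.337).

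NDUFS8 (ENSG00000110717, chromosome 11 from 68030617 to 68036644, plus strand) encodes a core subunit of complex I that holds iron-sulfur clusters on the path to ubiquinone. It had 5.11, 5.75 and 4.60 FPKM in Control and 3.05, 3.22 and 3.28 FPKM in OX-LDL. Every OX-LDL library was below every Control library, and the OX-LDL libraries were close to each other. The fitted change was -0.66 on the log2 scale (standard error 0.11, adjusted p = 0.0126, edgeR), a level 1.58-fold lower after OX-LDL. Only the fit without OX-LDL replicate 1 lost the call (adjusted p = 0.0528).

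NDUFV2 (ENSG00000178127, chromosome 18 from 9102630 to 9134341, plus strand), another core subunit with an iron-sulfur cluster, belongs to the arm that oxidizes NADH. It had 18.7, 16.2 and 17.3 FPKM in Control and 22.1, 23.6 and 24.3 FPKM in OX-LDL. The OX-LDL libraries lay above the Control libraries without overlap. The fitted change was 0.45 on the log2 scale (standard error 0.09, adjusted p = 0.0205, edgeR), a level 1.37-fold higher. The call was kept in 3 of the 6 fits that left out a library (adjusted p = 0.0305 to 0.0758), and it was lost without Control replicate 2, Control replicate 3 or OX-LDL replicate 3. By these calls, 2 core subunits of the same complex moved in opposite directions. The FPKM of NDUFV2 was 3.42 ± 0.524 times that of NDUFS8 in Control and 7.33 ± 0.0864 times in OX-LDL. This ratio was not planned, and it restates the 2 opposite calls without adding evidence for them.

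COX6C (ENSG00000164919, chromosome 8 from 99873200 to 99893707, minus strand), a small accessory subunit of complex IV, had 16.1, 14.8 and 16.5 FPKM in Control and 19.2, 22.2 and 20.1 FPKM in OX-LDL. Its groups did not overlap. The fitted change was 0.41 on the log2 scale (standard error 0.09, adjusted p = 0.0291, edgeR), a level 1.33-fold higher. Of the 4 called genes it was the one nearest the threshold, and none of the 6 fits that left out a library kept the call (adjusted p = 0.0516 to 0.0980).

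**Figure D3:**
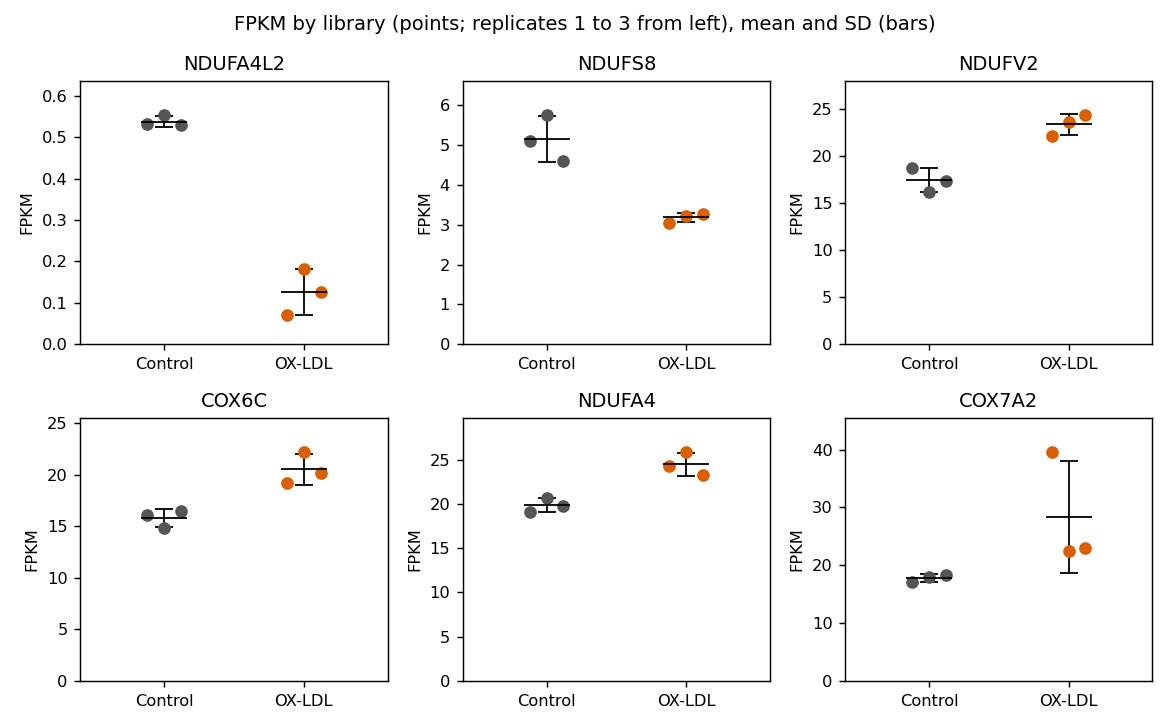
FPKM (y axis, linear from 0) in each of the 3 Control and 3 OX-LDL libraries (points), with the mean and SD (bars), for the 4 called genes, for NDUFA4 and for COX7A2, which was not called. In the 4 called genes and NDUFA4 the groups do not overlap; in COX7A2 the OX-LDL mean is carried by replicate 1 at 39.6 FPKM.

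The other core subunits of complex I were not called. NDUFV1, which binds NADH and its flavin, had 6.71, 6.95 and 8.11 FPKM in Control and 4.73, 4.77 and 6.64 FPKM in OX-LDL (log2 fold change -0.40, adjusted p = 0.147, edgeR). Its values in Control all lay above those in OX-LDL, by a narrow margin for OX-LDL replicate 3. NDUFS3 had a log2 fold change of 0.25 (adjusted p = 0.121), NDUFS7 of -0.22 (adjusted p = 0.398) and NDUFS1, the largest subunit of the complex, of -0.02 (adjusted p = 0.860). The 6 core subunits among these genes therefore ranged from -0.66 to 0.45 on the log2 scale, with 2 of them called and in opposite directions.

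Among the accessory subunits of complex I, which surround the core, none but NDUFA4L2, counted there by its symbol, was called. An unadjusted p-value under 0.05 was reached by 4 more of them. NDUFB9 had 17.5, 18.8 and 14.6 FPKM in Control and 13.1, 9.39 and 12.4 FPKM in OX-LDL (log2 fold change -0.51, adjusted p = 0.0644, edgeR). NDUFB8, at 26.2 ± 0.957 FPKM in Control cells, against 30.0 ± 0.840 FPKM in OX-LDL, had a log2 fold change of 0.23 (adjusted p = 0.0663). NDUFC1 had a log2 fold change of 0.34 (adjusted p = 0.123) and NDUFB2 of -0.27 (adjusted p = 0.117). In all 4 the groups did not overlap in FPKM. The fitted values of the remaining accessory subunits ran from -0.29 (NDUFB5) to 0.20 (NDUFA2). NDUFB5 was highest in Control replicate 1, and without that library its log2 fold change was -0.08. The steadiest included NDUFA9, which lies near the ubiquinone site, with a log2 fold change of 0.06 (95% interval -0.09 to 0.20), and NDUFA8, with 0.03 (95% interval -0.15 to 0.20).

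Complex II had no called gene, and no gene of it reached an unadjusted p-value under 0.05. SDHA, the flavoprotein that oxidizes succinate, was at 10.1 ± 0.134 FPKM in Control cells, against 9.06 ± 0.687 FPKM in OX-LDL (log2 fold change -0.13, adjusted p = 0.319, edgeR). Its groups did not overlap. Reads of SDHA may be shared with 3 pseudogenes that bear its name and that had a summed mean of 10.7 FPKM, against 9.60 FPKM for SDHA itself. SDHD had 16.3, 30.1 and 28.8 FPKM in Control and 28.5, 33.0 and 32.3 FPKM in OX-LDL. Control replicate 1 stood below the other 5 libraries, and the log2 fold change of 0.35 had a 95% interval of -0.16 to 0.87. Without Control replicate 1 it was 0.13.

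Complex III had no called gene either, but 4 of its 7 genes (57.1%) reached an unadjusted p-value under 0.05 and in 5 (71.4%) the groups did not overlap, against 30.4% and 37.2% of all genes. UQCRC1, a core protein of the matrix side, had 35.3, 41.8 and 35.4 FPKM in Control and 26.3, 32.9 and 23.8 FPKM in OX-LDL (log2 fold change -0.41, adjusted p = 0.0916, edgeR). CYC1, the cytochrome c1 that hands electrons to cytochrome c, had 25.8, 36.6 and 26.2 FPKM in Control and 22.7, 22.3 and 20.3 FPKM in OX-LDL (log2 fold change -0.40, adjusted p = 0.103). Control replicate 2 was the highest library of both genes, and without it the log2 fold change of CYC1 was -0.23. UQCRB had 14.8, 15.9 and 16.3 FPKM in Control and 12.04, 13.8 and 12.6 FPKM in OX-LDL (log2 fold change -0.26, adjusted p = 0.0751). UQCRC2, the other core protein, went the other way, with 15.2, 14.7 and 15.9 FPKM in Control and 17.0, 17.6 and 17.3 FPKM in OX-LDL (log2 fold change 0.21, adjusted p = 0.0896). None of these differences passed the threshold. The Rieske iron-sulfur protein UQCRFS1 had a log2 fold change of 0.08 (95% interval -0.07 to 0.24), and UQCRQ also had 0.08.

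In complex IV, COX7A2, the widely expressed form of subunit VIIa, had the highest fitted log2 fold change of the 57 genes without being called. It had 17.1, 17.9 and 18.4 FPKM in Control and 39.6, 22.5 and 23.1 FPKM in OX-LDL. All OX-LDL libraries were above all Control libraries, but OX-LDL replicate 1 stood far above the other two. The fitted change was 0.70 on the log2 scale (standard error 0.21, adjusted p = 0.0735, edgeR), and without OX-LDL replicate 1 it was 0.40 (adjusted p = 0.0528). COX7B had a log2 fold change of 0.22 (adjusted p = 0.219), COX5A of 0.18 and COX8A of 0.18. COX6B1, COX7C and COX5B had log2 fold changes of -0.06, -0.07 and -0.14. None of these 6 genes reached an unadjusted p-value under 0.05.

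Of the 4 called genes, only NDUFS8 and NDUFV2 had a promoter entry, and neither held 1 of the motifs. Nothing about the calls can be read from so few genes. The median log2 fold change of the 17 genes with at least 1 of the motifs was -0.07, and that of the 31 promoters with none was 0.0051. For the 7 genes with the NRF1-type motif shown above, the median was 0.03, with a range from -0.22 (NDUFS7) to 0.35 (SDHD). For the 8 genes with the YY1-type motif it was -0.11, from -0.41 (UQCRC1) to 0.23 (NDUFB8), and for the 3 with the GABPA-type motif -0.11. These are descriptions of a few genes each, with no test.

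Some of the genes share sequence with others, which limits what their values mean. In the coordinates of the table, 22 of the 58 overlap another gene on the same strand, and in 5 that gene had a mean above 1 FPKM. NDUFA13 had 5.79, 6.40 and 12.2 FPKM in Control and 8.34, 5.03 and 8.06 FPKM in OX-LDL. The gene AC011448, which overlaps it on the same strand, had 9.28, 8.31 and 3.62 FPKM in Control and 6.12, 8.81 and 4.19 FPKM in OX-LDL. The sum of both varied less in Control, with 15.1, 14.7 and 15.9 FPKM, against 14.5, 13.8 and 12.3 FPKM in OX-LDL. NDUFS3 overlaps PTPMT1, NDUFB2 overlaps ADCK2, NDUFB8 overlaps AL133352 and SDHA overlaps AC021087, so their levels are uncertain. The library kit marks strand, but whether the counting used it is not stated. On the other strand, 25 of the 58 overlap a gene, with the called genes NDUFA4L2, NDUFV2 and COX6C among them. Pseudogenes with a subunit's name were found for 32 of the 58 genes, 113 in all. Their summed level was above 0.1 of the parent's for SDHA and NDUFA5 only, and adding their counts to the parents left the same 4 genes called.

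Other genes of the respiratory system were read from the same test. Of 7 tested subunits of complexes I to IV outside the list, NDUFA4 was upregulated and none was downregulated (14.3% called, median log2 fold change -0.06). Of the 13 subunits encoded by mitochondrial DNA, 2 were upregulated (15.4%, median 0.06). MT-ND5, a proton-pumping subunit of complex I, had 1211 ± 111 FPKM in Control cells, against 1667 ± 74.3 FPKM in OX-LDL (log2 fold change 0.49, adjusted p = 0.0144, edgeR). Its neighbour MT-ND6, on the opposite strand of mitochondrial DNA, had 999.9 ± 101 FPKM in Control cells, against 1435 ± 51.1 FPKM in OX-LDL (log2 fold change 0.55, adjusted p = 0.0118). In both genes every OX-LDL library was above every Control library. MT-ND5 ends at base 14148 and MT-ND6 begins at base 14149, and whether counting used strand is not stated. Whether the 2 calls are separate signals was not tested. Of 16 genes of ATP synthase (complex V), ATP5PB and ATP5PD of the peripheral stalk were upregulated by 0.32 and 0.27 on the log2 scale (adjusted p = 0.0404 and 0.0433), which is 12.5% of the genes. The median was 0.14, with 12 of the 16 fits above 0. When 1 library was left out, MT-ND6 kept its call in all 6 fits and MT-ND5 lost it only without OX-LDL replicate 3 (adjusted p = 0.0538). ATP5PB and ATP5PD lost theirs in all 6 fits (adjusted p = 0.0570 to 0.124 and 0.0742 to 0.139).

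Assembly factors build the complexes without staying in them. Of 45 tested, 3 were upregulated and 3 were downregulated (13.3%, median log2 fold change 0.0079). NDUFAF4, an assembly factor of complex I, had 10.2, 11.9 and 10.1 FPKM in Control and 5.76, 6.09 and 6.10 FPKM in OX-LDL. The groups lay far apart, at -0.80 on the log2 scale (standard error 0.10, adjusted p = 0.00523, edgeR), and all 16 alternative fits kept the call. COA7 (-0.56, adjusted p = 0.00639) and COA1 (-0.44, adjusted p = 0.0156), both linked to complex IV assembly, were also downregulated. COX16 (0.52, adjusted p = 0.0215) was upregulated, as were SDHAF4 (0.55, adjusted p = 0.0430) and TACO1 (0.42, adjusted p = 0.0423), which were named after their values had been seen. When 1 library was left out, COA7 kept its call in all 6 fits, COA1 lost it without OX-LDL replicate 1 or 3 (adjusted p up to 0.0601) and COX16 without Control replicate 2, Control replicate 3 or OX-LDL replicate 3 (up to 0.0787). SDHAF4 and TACO1 lost theirs in all 6 fits (up to 0.137 and 0.131).

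Of 14 regulators of mitochondrial biogenesis, PPRC1, a coactivator related to PGC-1α, was downregulated (log2 fold change -0.44, adjusted p = 0.0242, edgeR) and none was upregulated (7.14%, median -0.09). Of 15 electron carriers and matrix dehydrogenases, 4 were upregulated and 1 was downregulated (33.3%, median 0.06). Cytochrome c itself (CYCS), the carrier between complexes III and IV, had 37.6, 41.7 and 41.0 FPKM in Control and 55.4, 50.1 and 52.9 FPKM in OX-LDL. All OX-LDL libraries were above all Control libraries (log2 fold change 0.43, standard error 0.07, adjusted p = 0.0106), and the call was kept in all 16 alternative fits. The Krebs cycle enzymes FH (0.37, adjusted p = 0.0198) and IDH3G (0.48, adjusted p = 0.0219) were upregulated. OGDH, the E1 subunit of the oxoglutarate dehydrogenase complex, was downregulated (-0.51, adjusted p = 0.0366) and was named after its values had been seen. When 1 library was left out, OGDH lost its call in all but the fit without Control replicate 3 (adjusted p up to 0.123). FH (up to 0.0768) and IDH3G (up to 0.0802) lost theirs without Control replicate 2 or OX-LDL replicate 3, FH also without OX-LDL replicate 1 and IDH3G also without Control replicate 3. PPRC1 kept its call only when Control replicate 1 or OX-LDL replicate 2 was left out (up to 0.0837 in the others). Against the 15.3% of all genes called, these lists describe their genes only, and no list was tested against the others.

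**Figure D4:**
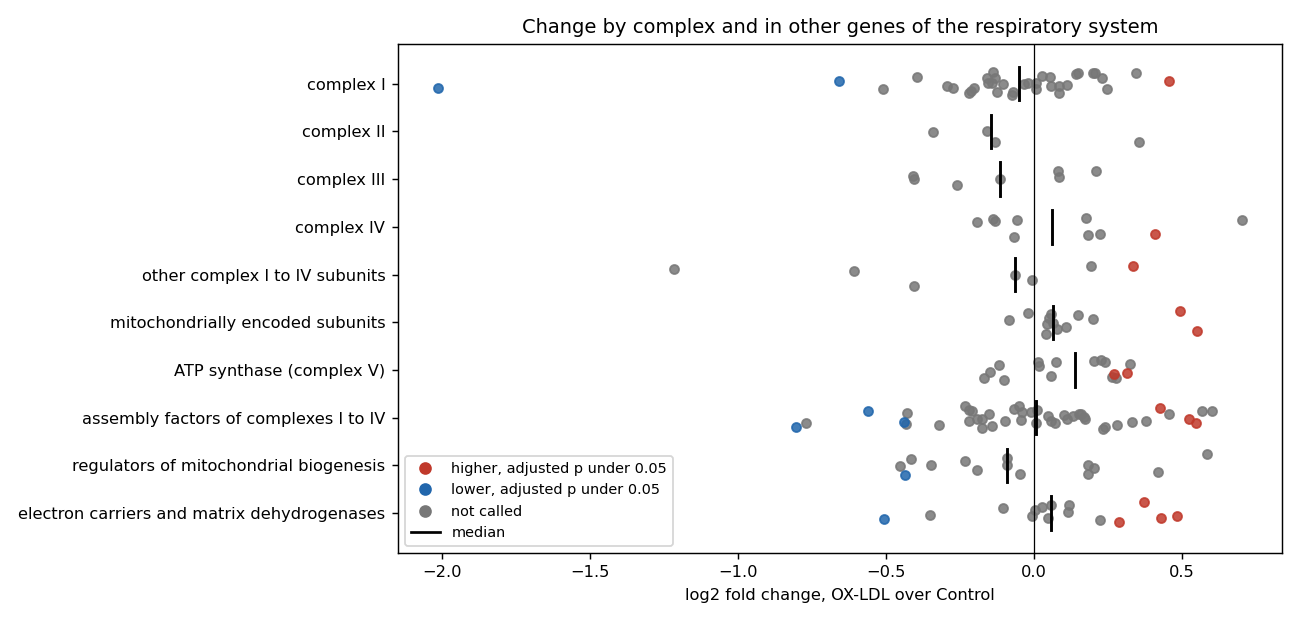
Fitted log2 fold change (x axis, OX-LDL over Control) of each tested gene (points, jittered vertically) in complexes I to IV and in 6 further lists, coloured by call, with the median of each row as a black bar. The medians lie between -0.14 (complex II) and 0.14 (complex V), and called genes stand on both sides of 0 in complex I, the assembly factors and the last row.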

How the data were processed

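Poly(A) RNA of HK-2 cells was sequenced by the authors as read pairs in 6 libraries, 3 Control and 3 OX-LDL, grouped by the labels. The authors deposited 1 table of estimated counts, whole numbers not scaled for library size, and of FPKM values, scaled by the authors for gene length and library size, with a count of 0 listed at 0.0001 FPKM. The submitters' processing notes name cutadapt 1.9, HISAT2 2.0.4, StringTie 1.3.4d, edgeR, DESeq2 and GRCh38 without giving their roles. Whether counting used strand is not given in the sources used here.

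Gene counts of exactly 4, 8 and 12 were in excess over neighbouring counts by factors of 3.26, 2.95 and 2.13, read as about 4 counts per read pair. The 19510 genes that averaged 0.1 FPKM or more were tested on the deposited counts with edgeR 4.0.16 in R 4.3.3 (TMM factors, glmQLFit, glmQLFTest, group as the only term), with Benjamini-Hochberg adjustment over all of them and a call at an adjusted p-value under 0.05. Standard errors and 95% intervals came from the quasi-likelihood F. No exact permutation test was used for single genes, as 0.1 is the smallest two-sided p-value that 3 libraries against 3 allow. The fits were tested on simulated counts with 200 changed genes. No pair of libraries within a group agreed within sampling noise.

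Every subunit gene could be named. Values in every library were required for the called genes, the genes of highest and lowest level in each complex, and both paralog pairs, and each further list was to be named by at most 4 genes of smallest p. SDHAF4, TACO1, OGDH and the near-threshold genes given by library fall outside that requirement. The genes, the lists (other subunits, mitochondrially encoded subunits, ATP synthase, assembly factors, biogenesis regulators, electron carriers and matrix dehydrogenases, and markers of 4 cell types) and the motifs were chosen with earlier results of these data known. Promoters came from RefSeq (GRCh38.p14), and positions of genes are those of the table. Some genes counted in the lists are not reported here by name. The alternatives were DESeq2 1.42.0, limma 3.58.1 on log2(FPKM + 0.1) and log2(FPKM + 1), other scaling factors, a minimum of 1 FPKM, no minimum, a replicate block, added pseudogene counts and leaving out each library.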

Additional observations from a re-analysis of the deposited data

How the results depend on the processing

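The medians of all 57 tested genes and of each complex moved by less than the spread between replicates under all 16 alternatives. For the fits that left out 1 library this was largely fixed in advance, because the spread came from the same libraries. Those fits therefore say little about the medians. The median over all genes stayed between -0.0331 and 0.0216 on the log2 scale. The counts of calls were less stable. From 2 higher and 2 lower, DESeq2 gave 4 and 4 (adding COX7A2, NDUFB8, NDUFB9 and UQCRC1) and a minimum of 1 FPKM, which leaves NDUFA4L2 untested, gave 4 and 1. Leaving out 1 library gave 0 to 1 higher and 1 to 4 lower, with 1161 to 2943 genes called in all, against 2991 with all 6 libraries and 4430 in DESeq2. The cause of these differences was not tested. The fits that left out 1 library had fewer libraries but the same 19510 genes, and DESeq2 used all 6 libraries and the same genes.

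A replicate block gave 0 higher and 2 lower. The numbers do not pair the libraries by the correlation of their deviations, which was -0.041, -0.0031 and 0.036 for replicates 1 to 3, and only replicate 3 correlated best with its own number. Under the replicate block, 1636 genes were called in all.

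Of the further lists, the assembly factors (3 higher, 3 lower) gave 6 and 5 in DESeq2, 1 higher without a minimum and 0 higher with the block. The complex V genes (2 higher) gave 1 without TMM, 0 without a minimum and 0 with the block. The electron carriers and matrix dehydrogenases (4 higher, 1 lower) gave 2 higher with the block, and NDUFA4 left the other subunits at 0 higher there, while DESeq2 called 1 of them lower. The regulators (0 higher, 1 lower) gave 1 higher and 3 lower in DESeq2, 1 higher with upper-quartile factors or a minimum of 1 FPKM, and 0 lower with the block. Leaving out 1 library gave 0 to 1 higher and 2 to 4 lower assembly factors, 0 higher complex V genes in each fit, 1 to 3 higher and 0 to 1 lower carriers and dehydrogenases, 0 to 1 higher and 0 to 1 lower other subunits, 1 to 2 higher mitochondrially encoded subunits and 0 to 2 lower regulators.

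Among the named genes for which the alternatives were computed one by one, the sign changed in 4, none of them called, which were NDUFA8 (-0.000997 without TMM, -0.0031 with limma at either pseudocount), NDUFS1 (0.0019 with upper-quartile factors), COX7C (-0.23 to 0.040 with 1 library left out, above 0 without OX-LDL replicate 3) and UQCRQ (-0.041 to 0.17, below 0 without OX-LDL replicate 2). NDUFA4L2, at 15 to 142 counts, had the fewest counts of the 4 called genes, and its log2 fold change was -1.52 and -0.45 with limma at pseudocounts of 0.1 and 1.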
